A study of Neurospora crassa with 18 samples.

Results

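Among the genes of the filamentous fungus *Neurospora crassa* that carry ASH1-catalyzed H3K36 methylation, 568 lacked H3K27me2/3 and were silent in the wildtype strain. These silent ASH1-marked genes were chosen by 3 criteria. They are on the list of 1970 ASH1-marked genes, they are absent from the list of 836 genes marked by H3K27me2/3, and they had at most 3 raw counts summed over both WT RNA libraries. The set makes up 568 of 9730 genes in the lists and 568 of the 1370 ASH1-marked genes without H3K27me2/3. The other 802 genes with those marks had 4 or more WT counts. Because WT counts chose the set, its low WT level is a description and was not tested.

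H3K36 is methylated by 2 enzymes in this fungus. SET-2 travels with elongating RNA polymerase II and marks genes as they are transcribed, whereas ASH1 methylates H3K36 independently of transcription. H3K27me2/3 is the mark of Polycomb Repressive Complex 2 and of facultative heterochromatin, in which genes are kept off until development or nutrition calls for them. The genes described here therefore carry the ASH1 mark without the Polycomb mark, and their RNA was followed in a strain with catalytically inactive ASH1 and in a strain labelled as a deletion of *set-2*.

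Poly-A+ RNA from germinated conidia was sequenced in 4 strains with 2 libraries each, named as biological duplicates in the study's methods. WT is N623 (mat A, *his-3*). The parent, N2930, is mat A and *his-3* with Δ*mus-52*::bar and so lacks a protein of DNA end joining. The *ash1*(Y888F) strain is N4878 (mat A, *his-3*, with *ash1*(Y888F)-3xFLAG::hph), in which the substitution Y888F removes the catalytic activity, and is called the *ash1* mutant. The Δ*set-2* strain is N5761 (mat a, Δ*set-2*::hph) listed as a stock center strain, and it differs from the other 3 in mating type and in not carrying the *his-3* allele as well. N4878 is listed without Δ*mus-52*::bar, which the parent carries. Each comparison of strains takes in these other differences. ASH1 marks were mapped by ChIP-seq in 1 Δ*set-2* sample, so a gene is marked or unmarked with no replicate error.

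A library held 6547197 to 8837798 counts in genes. After scaling to library size (CPM), 1 count equalled 0.113 to 0.153 CPM. Reads in no gene made up 10.6 to 11.5% in the 4 mutant libraries and 3.54 to 7.81% in the other 4. The dates in the library names differ between the mutants and the WT and parent libraries, so strain and date cannot be told apart in a comparison of mutant with parent. The labels were checked against the altered genes. *mus-52* had 2 counts in each parent library and 255 to 483 in the other 6. *set-2* had 46 and 50 counts in the libraries labelled Δ*set-2* and 113 to 210 in the other 6, so it was lower there (adjusted p = 0.0040 against the parent) but not at 0. The point mutation of *ash1* (*NCU01932*, named *set-3* in RefSeq) cannot be checked from gene counts, and that gene had 556 and 825 counts in the *ash1* mutant against 711 and 784 in the parent. The hyphal marker *hex-1* had 20801 to 48821 counts in every library.

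The silent ASH1-marked genes together held 216 and 197 counts in the WT libraries and 270 and 229 in the parent libraries. In the *ash1* mutant they held 13739 and 15405 counts, and in the libraries labelled Δ*set-2* 959 and 1342. As a share of all counts in genes this was 28.9 and 24.3 CPM in WT, 33.1 and 25.9 CPM in the parent, 1921 and 2353 CPM in the *ash1* mutant, and 126 and 183 CPM in Δ*set-2*. Both *ash1* mutant libraries lay far above all others, and the Δ*set-2* libraries lay between them and the strains with both enzymes. In bulk RNA, a few cells with much of a transcript and many cells with little of it cannot be told apart.

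In the *ash1* mutant 404 of the 568 genes had more than 3 counts, and the levels reached were spread widely. Over the 2 *ash1* mutant libraries, 60 of the 568 genes had 100 or more counts, 184 had 20 to 99, 160 had 4 to 19 and 164 had at most 3. The median was 15 counts. In the parent no gene had 20 or more counts, 43 had 4 to 19 and 525 had at most 3. In Δ*set-2* 25 genes had 20 or more counts, 105 had 4 to 19 and 438 had at most 3. No count fell in either library of a strain for 337 genes in WT, 370 in the parent, 69 in the *ash1* mutant and 283 in Δ*set-2*, although up to 3 counts over the group are compatible with 0. A single gene, *NCU06938*, held 15.2% of the counts that the *ash1* mutant had in the set, and the 10 most abundant genes held 32.2%.

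**Figure D1:**
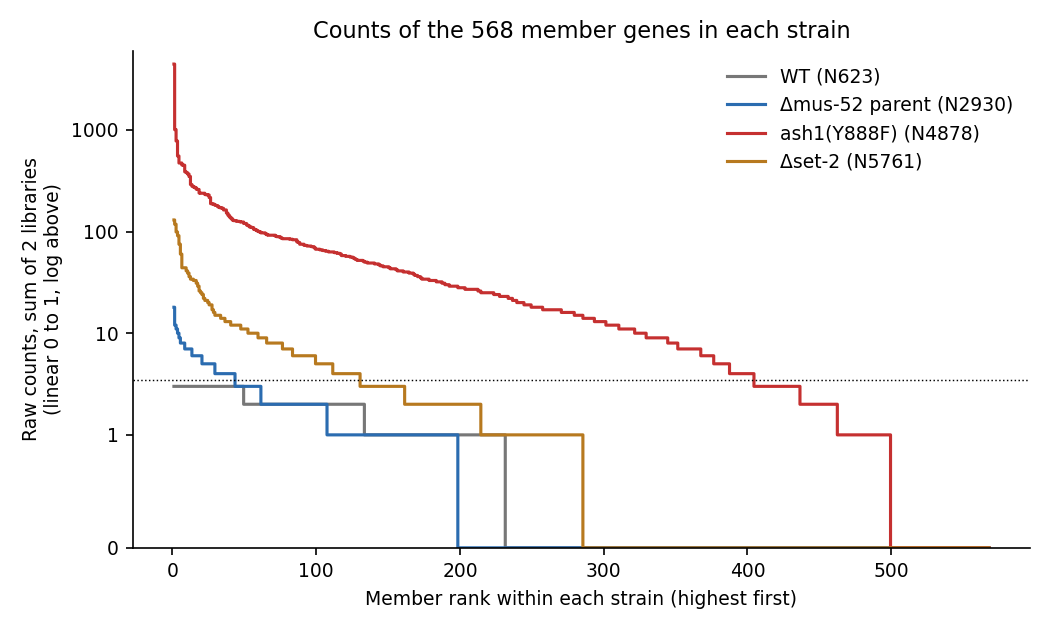
Raw counts summed over 2 libraries (vertical axis, linear from 0 to 1 and logarithmic above) for the 568 silent ASH1-marked genes, ordered from highest to lowest separately in each of the 4 strains (horizontal axis). The dotted line lies just above the limit of 3 counts that the WT libraries had to meet by the choice of genes; 404 genes lay above it in the *ash1* mutant, 130 in Δ*set-2* and 43 in the parent.

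To ask which of these genes had more RNA in the *ash1* mutant, it was compared with the parent by edgeR's quasi-likelihood test over all genes. In that comparison 210 of the 568 genes were higher in the *ash1* mutant (37.0%) and 0 were lower at an adjusted p under 0.1. Among all 8125 genes tested, 1294 were higher (15.9%). The share of the set counts untested genes as not called, and on that basis 13.3% of all 9730 genes and 20.5% of the 1607 genes with at most 3 WT counts, the set included, were higher. None of the set was lower at an unadjusted p under 0.05 or by DESeq2. In the parent, however, 525 of the 568 genes had at most 3 counts and none had 20 or more. A lower call was thus hardly possible, and its absence says nothing about the direction of change. The low-count filter let 213 of the 568 genes into the test, and each of them entered through its counts in the mutant, since 0 met the filter's level in both parent libraries. The 355 genes outside the test had too few counts in the 4 libraries, and no share of calls among the tested members is given for this reason. With no filter 507 of the 568 genes were tested and 307 were higher, where 15.8% of all genes tested were.

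Genes on both sides of the limit of 3 WT counts are given without a test. Those with a WT sum of 0, 1, 2 and 3 numbered 337, 98, 84 and 49, and of these 106, 56, 51 and 31 had 20 or more counts in the *ash1* mutant. Just outside the limit, the genes with the same marks and 4, 5 or 6 WT counts numbered 37, 30 and 19, and 25, 25 and 17 of them had 20 or more counts in the mutant. Median sums in the *ash1* mutant were 8 counts at a WT sum of 0 and 32 at a sum of 3, beside 39 at a sum of 4.

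The gene with the most RNA in the *ash1* mutant, *NCU06938* on LG VII (835356 to 836493), had 3 and 0 counts in the WT libraries, 3 and 2 in the parent, 2318 and 2120 in the *ash1* mutant and 0 and 6 in Δ*set-2*. It was higher than in the parent by 9.97 ± 0.43 on the log2 scale (SE, n = 2 libraries per strain, adjusted p = 0.0023). All 12 genes that led this comparison lack a gene symbol and are protein-coding in RefSeq. *NCU05472* on LG II (1690985 to 1691833) followed with 1 and 1 counts in the WT libraries, 2 and 1 in the parent, 427 and 578 in the *ash1* mutant and none in Δ*set-2*. Its ratio to the parent was 416 (exact 95% counting interval 142 to 2019, adjusted p = 0.0023), an interval that covers counting error only. *NCU06476* (LG III, 1543835 to 1544474) reached 382 and 395 counts in the *ash1* mutant against 0 and 1 in the parent. For both genes the mutant libraries stood apart from the other 6, in which no library passed 2 counts.

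The remaining 9 of the 12 leading genes had 60 to 412 counts per *ash1* mutant library and at most 5 per parent library. *NCU06591* on LG IV had 298 and 255 against 1 and 0, and *NCU06917* on LG VII had 225 and 247 against none, at least 195-fold higher. *NCU08615* on LG I (9610349 to 9612668) had 158 and 190 counts against none, at least 144-fold higher, and *NCU05358* on LG II had 131 and 237 against none, at least 152-fold higher. *NCU00052* on LG III had 199 and 250 against 1 and 1, and *NCU04616* on LG V had 195 and 184 against 1 and 2. *NCU01091* on LG V was the exception in evenness, with 412 counts in the first *ash1* mutant library and 60 in the second, and its adjusted p was 0.030 where the other 11 lay between 0.0023 and 0.0041. *NCU04034* and *NCU09569* also gained RNA in Δ*set-2* and are described with that strain.

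Of the 18 genes in the set that have a symbol, 11 were higher in the *ash1* mutant than in the parent, and 4 of the 11 are known from mating and meiosis. *matA-3*, a regulator of the HMG-box family in the mat A mating-type locus (LG I, 1857194 to 1858469), had 0 and 1 counts in the WT libraries, none in the parent, and 38 and 88 in the *ash1* mutant, at least 52.1-fold higher (adjusted p = 0.0093). Its 0 counts in Δ*set-2* cannot be read as silence, because that strain is mat a. *sad-2*, a scaffold of meiotic silencing by unpaired DNA at the nuclear periphery (LG V, 5529766 to 5533137), had no count in WT, the parent or Δ*set-2* and 59 and 93 in the *ash1* mutant, at least 62.9-fold higher (adjusted p = 0.0058). *sad-3*, a helicase-like protein of the same pathway (LG I, 5853014 to 5856857), had 1 and 0 counts in the WT libraries, 0 and 2 in the parent, 22 and 42 in the *ash1* mutant and 7 and 5 in Δ*set-2* (ratio to the parent 39.7, interval 10.6 to 335, adjusted p = 0.015). *asd-3*, named for ascus development (LG VI, 1380321 to 1382611), had 1 and 0 counts in the WT libraries, 6 and 1 in the parent, 47 and 57 in the *ash1* mutant and 0 and 11 in Δ*set-2*, and it was higher than in the parent by 4.07 ± 0.70 on the log2 scale (SE, adjusted p = 0.016). In all 4 genes both *ash1* mutant libraries exceeded every library of the other strains.

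The other markers of sexual tissue did not all move with these genes. The 8 markers of sexual tissue found in the annotation (*asd-1*, *asd-3*, *asd-4*, *poi-2*, *mfa-1*, *ccg-4*, *fsd-1* and *app*) summed to 4529 and 11349 counts in the *ash1* mutant, 1009 to 1491 in WT and the parent, and 2326 and 3023 in Δ*set-2*. Most of the *ash1* mutant sum came from *asd-1* (1450 and 5443 counts, against 885 and 715 in the parent) and *ccg-4* (1382 and 4840, against 26 and 31), and *poi-2* (635 and 267, against 8 and 5) and *mfa-1* (395 and 240, against 6 and 6) were also high. *asd-4* had 190 and 167 counts against 272 and 422 in the parent, *fsd-1* had 256 and 310 against 213 and 279, and *app* had 174 and 25 against 18 and 32. In Δ*set-2* most of the sum came from *app* (1035 and 1032 counts) and *asd-1* (992 and 867), while *mfa-1* had 748 and 127 and *ccg-4* 0 and 2. That strain is mat a, so its sum also takes in the difference in mating type. No marker of the 8 was at 0 in both *ash1* mutant libraries. The 7 markers of developing conidia (*con-6*, *con-8*, *con-10*, *con-13*, *eas*, *cat-1* and *fl*) summed to 2189 and 2258 counts in the *ash1* mutant and 1009 to 2300 in WT and the parent, but to 8051 and 8593 in Δ*set-2*. Within that level sum the markers went apart, with *eas*, the conidial hydrophobin, at 76 and 82 counts in the *ash1* mutant against 1333 and 1620 in the parent, *con-8* at 420 and 989 against 89 and 64, *con-6* at 456 and 92 against 15 and 18, *con-10* at 63 and 68 against 12 and 22, and *cat-1*, a catalase, at 1072 and 799 against 612 and 462. The part of sexual or conidiating cells in these results was not tested.

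The other 7 encode enzymes that act on carbohydrates. This grouping by symbol was made after the values were seen and was not tested. *gh10-1*, a xylanase (LG VI, 3456057 to 3457175), and *cdh-2*, a cellobiose dehydrogenase (LG VI, 3461038 to 3464101), are close together on the same strand. *gh10-1* had no WT count, 1 and 3 counts in the parent, 64 and 15 in the *ash1* mutant and 3 and 12 in Δ*set-2* (log2 fold change over the parent 4.52 ± 1.05, SE, adjusted p = 0.041). *cdh-2* had no WT count, 0 and 2 counts in the parent, 40 and 33 in the *ash1* mutant and 0 and 1 in Δ*set-2* (ratio to the parent 45.3, interval 12.1 to 381, adjusted p = 0.012). Both rose in the *ash1* mutant, *gh10-1* with 64 counts in one library and 15 in the other. *gh3-4*, a beta-glucosidase on LG IV, had 30 and 72 counts in the *ash1* mutant against 1 and 2 in the parent and 6 and 11 in Δ*set-2* (ratio to the parent 42.2, interval 14.03 to 208). *gh7-3*, of the cellobiohydrolase family (LG VI, 2137956 to 2139189), had 11 and 16 against 1 and 0. *gh18-1*, of the chitinase family, had 30 and 35 against 1 and 1, *gh76-1* had 12 and 37 against 2 and 0, and *gh47-8*, of an alpha-mannosidase family, had 18 and 15 against 1 and 0. Their adjusted p ranged from 0.0058 for *gh18-1* to 0.035 for *gh76-1*, and *gh7-3* lost its call without the second parent library (adjusted p = 0.11).

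The other 7 genes with a symbol did not enter the test of the *ash1* mutant against the parent. *mlh-2*, a MutL homologue of DNA mismatch repair, had 9 and 15 counts in the *ash1* mutant and none in the parent or Δ*set-2*, at least 9.93-fold higher. *gh61-4*, of the lytic polysaccharide monooxygenases, had 13 and 4 counts in the *ash1* mutant and none in the parent, and *stk-41*, a protein kinase, had 2 and 11 against none. *con-13*, a conidiation gene, had 4 and 4 counts against 0 and 1. *gh61-10*, *fbm-1* and *mld-1* had at most 2 counts in any *ash1* mutant library.

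Whole lists of genes by role held few members of the set. Of 29 listed genes for plant cell wall and sugar use, 12 carry the ASH1 mark without H3K27me2/3, 3 belong to the set (*gh3-4*, *gh61-4* and *gh10-1*) and 2 of these were higher. Of 16 mating and sexual development genes found, 2 belong to the set (*matA-3* and *asd-3*) and both were higher. Of 10 genes found for RNA and meiotic silencing, 2 belong (*sad-2* and *sad-3*) and both were higher, and of 14 conidiation genes 1 belongs (*con-13*), which was not tested. Over the whole plant cell wall and sugar list, members included, 7 of 24 tested genes were higher in the *ash1* mutant than in the parent and 3 lower. Of all genes tested 15.9% were higher and 4.01% lower. The mating list had 9 of 14 higher and 0 lower, the silencing list 5 of 10 and 1, and the conidiation list 6 of 13 and 1. Gains in these lists were thus not limited to members. No gene of the lists for heterokaryon incompatibility (6 found), polyketide synthases (6), cytochromes P450 (1), quinic acid use (7) or H3K36 and H3K27 methylation (2) is in the set. Lists were matched by symbol, and 550 of the 568 genes have none, so roles are known here for a small part of the set.

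**Figure D2:**
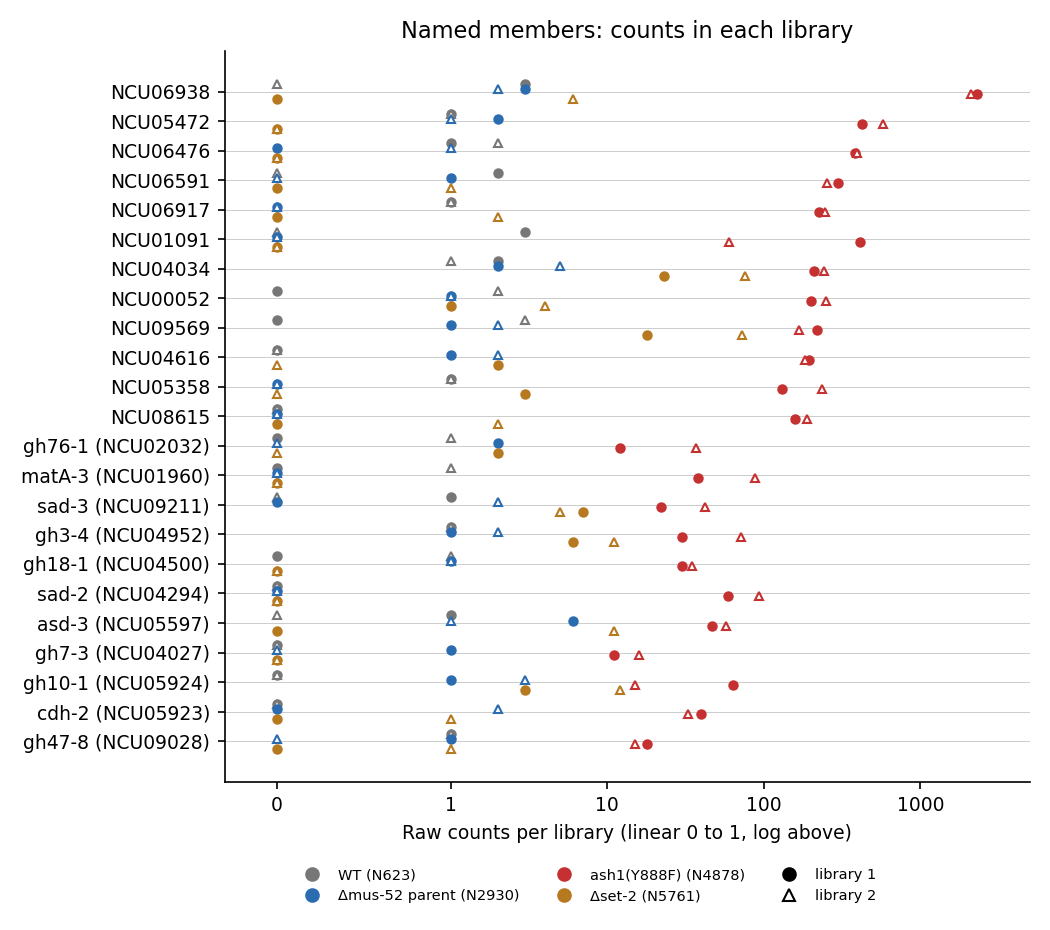
Raw counts in each of the 8 libraries (horizontal axis, linear from 0 to 1 and logarithmic above) for the 12 silent ASH1-marked genes with the most RNA in the *ash1* mutant and, below them, the 11 genes with a symbol that were higher than in the parent. Each color is a strain, filled circles are library 1 and open triangles library 2. Both red *ash1* mutant points lie to the right of all other points in every row, with 11 or more counts.

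The 2 *ash1* mutant libraries did not weigh the genes alike. Of the 244 genes with 20 or more counts over both, 159 differed by up to 2-fold in CPM between the libraries and 35 by more than 3-fold, 30 of these with the higher level in the second library. The median log2 ratio of the first to the second library was -0.48. Both libraries exceeded both parent libraries in raw counts for 410 of the 568 genes. For the 370 genes with no count in the parent any count in each mutant library is enough for this. The number thus says little on the agreement of the libraries, and no share over all genes was taken. Without the first library 216 genes were higher than in the parent and without the second 179.

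Longer genes of the set reached higher counts in the *ash1* mutant. In the shortest span quartile, of 210 to 753 bp, 27 of 143 genes had 20 or more counts (18.9%), and in the longest, of 1739 to 5070 bp, 97 of 141 did (68.8%). The middle quartiles had 35.9% and 48.6%. Per kilobase of span the median levels in the *ash1* mutant ran from 0.484 CPM per kb in the shortest quartile over 0.917 and 0.960 to 1.37 in the longest. A limit on raw counts favours short genes when silent genes are chosen, and the median span was 1136 bp in the set (quartiles 753 and 1731), 2125 bp in the 802 other ASH1-marked genes without H3K27me2/3 and 2129 bp over all genes. Length thus belongs partly to the choice and no test was made on it.

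The longest gene, *NCU09793* on LG VI (1145634 to 1150703, 5070 bp), stayed low with 4 and 7 counts in the *ash1* mutant and 2 and 10 in Δ*set-2*. In 42 genes no count fell in any of the 8 libraries. The longest of these are *NCU16528* on LG II (2245 bp) and *NCU02902*, *NCU01987* and *NCU08614* on LG I (1855, 1731 and 1722 bp). *NCU08614* (9608358 to 9610079) is the immediate neighbour of *NCU08615*, which had 348 counts over both *ash1* mutant libraries. Both lie on the same strand, one at 0 in all libraries and the other among the 12 most abundant.

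The parent held little RNA from these genes. Its 4 highest were *NCU04169* with 13 and 5 counts, *NCU02593* with 4 and 8, *NCU06725* with 5 and 6 and *NCU02188* with 7 and 3. In the *ash1* mutant *NCU04169* had 139 and 120 counts (log2 fold change 4.07 ± 0.54, SE, adjusted p = 0.0085), *NCU02593* 84 and 85 (4.05 ± 0.46, adjusted p = 0.0060) and *NCU06725* 17 and 72 (3.18 ± 0.77, adjusted p = 0.047). *NCU06725* lost its call without the first parent library (adjusted p = 0.12). *NCU02188*, with 17 and 13 counts, did not pass the test (1.80 ± 0.61, adjusted p = 0.12).

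Silent genes with other marks were set beside these, all held to the same limit of 3 WT counts. In the *ash1* mutant 244 of the 568 genes with ASH1 alone had 20 or more counts (43.0%), against 89 of 439 that carry H3K27me2/3 as well (20.3%), 50 of 531 with neither mark (9.42%) and 9 of 69 with H3K27me2/3 alone (13.04%). Over all 1607 genes with at most 3 WT counts the share was 24.4%. The count of genes higher in the *ash1* mutant than in the parent was 77 of 439 (17.5%), 34 of 531 (6.40%) and 8 of 69 (11.6%) in these classes. Among the 802 genes with the same marks and more WT counts, 392 were higher (48.9%) and 15 lower. Median spans of the silent classes were 1136, 1038, 973 and 999 bp in the same order. Differences between the classes were not tested, since genes are not replicates of a condition.

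**Figure D3:**
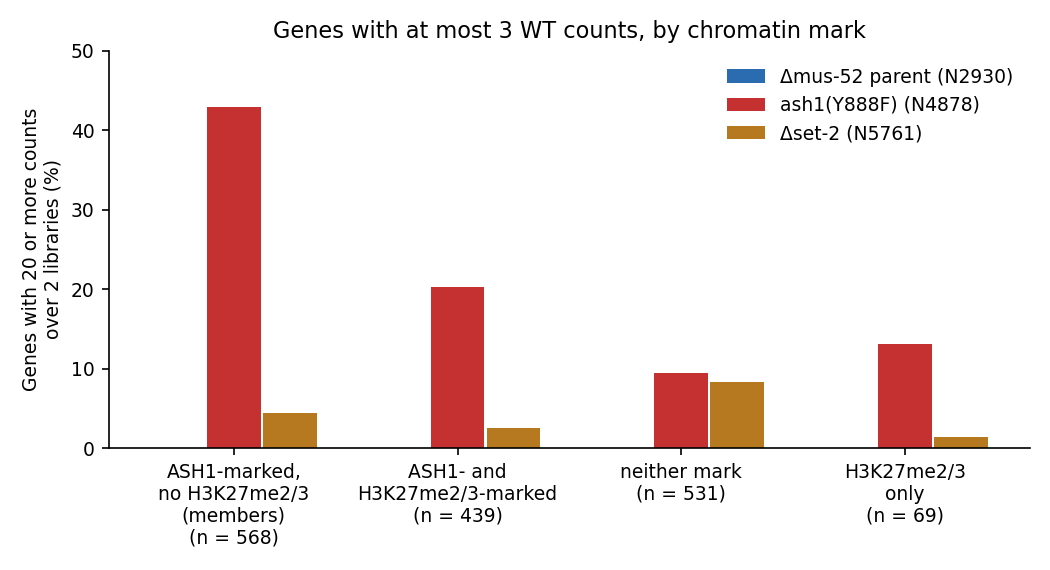
Share of genes with 20 or more counts summed over 2 libraries (vertical axis, percent) among genes with at most 3 WT counts, grouped by chromatin mark (horizontal axis, n genes in each). Bars are the parent, which stands at 0% in every class by measurement, the *ash1* mutant (43.0, 20.3, 9.42 and 13.04%) and Δ*set-2* (4.40, 2.51, 8.29 and 1.45%); no error bar applies because each bar is 1 pair of libraries.

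The libraries labelled Δ*set-2* were compared with the parent in the same way. In them *ash1* itself had 179 and 181 counts against 711 and 784 in the parent, and *set-2* was at 46 and 50. The comparison takes in these counts along with the differences in mating type and *his-3*, and the part of each was not tested. In edgeR's test against the parent, 18 of the 568 genes were higher (3.17%) and 0 lower, where 27.2% of all genes tested were higher. Of the set, 19 genes passed the low-count filter, each through its counts in the mutant, and this test says nothing on the 549 others. Counting untested genes as not called, 21.7% of all 9730 genes and 3.55% of all genes with at most 3 WT counts were higher, so the set stood close to silent genes in general. No gene was lower at an unadjusted p under 0.05, and DESeq2 called 1 lower and 30 higher. At the low parent counts of the set a lower call was rarely within reach here either. With all 4 strains in 1 fit 48 were higher and 3 lower. Genes with 20 or more counts in Δ*set-2* numbered 25 (4.40%), beside 5.04% of all genes with at most 3 WT counts and 44 of 531 silent genes with neither mark (8.29%). The 2 mutants were each compared with the same parent libraries.

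Of the 8 genes with the most RNA in Δ*set-2* among those called, 4 had more counts there than in the *ash1* mutant, although the direct comparison of the mutants called only *NCU17050* of these. *NCU09074* on LG I (764870 to 766051) had 1 and 0 counts in the parent, 36 and 94 in Δ*set-2* and 12 and 24 in the *ash1* mutant (ratio of Δ*set-2* to the parent 148, interval 26.1 to 5897, adjusted p = 0.0048). *NCU17050* on LG V (6362123 to 6362862), which lies 72998 bp from the last annotated base of its linkage group, had 1 and 1 counts in the parent, 49 and 69 in Δ*set-2* and 5 and 12 in the *ash1* mutant (ratio 67.2, interval 18.2 to 562, adjusted p = 0.0016). *NCU16648* on LG III had 5 and 0, 37 and 38, and 13 and 18 counts in the same order. In these 3 genes every Δ*set-2* library exceeded every *ash1* mutant library. In the direct edgeR comparison *NCU17050* was lower in the *ash1* mutant, whereas *NCU09074* (log2 difference -1.68 ± 0.61, SE, adjusted p = 0.12) and *NCU16648* (-1.09 ± 0.39, adjusted p = 0.12) did not pass the test. *NCU09074* was also called higher in the *ash1* mutant than in the parent (adjusted p = 0.018).

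Another 3 genes were called higher than the parent in both mutants and higher in the *ash1* mutant than in Δ*set-2*. *NCU04034* on LG VI (2119686 to 2120855) had 2 and 5 counts in the parent, 23 and 76 in Δ*set-2* and 209 and 242 in the *ash1* mutant. Its log2 fold change over the parent was 3.85 ± 0.79 in Δ*set-2* (SE, adjusted p = 0.014) and 6.21 ± 0.44 in the *ash1* mutant (adjusted p = 0.0028). *NCU09569* on LG VII had 1 and 2, then 18 and 73, then 219 and 168 counts, and *NCU03011* on LG I had 0 and 2, then 10 and 50, then 103 and 158. In the direct comparison of the mutants the log2 difference was 2.37 ± 0.55 for *NCU04034* (adjusted p = 0.040), 2.28 ± 0.64 for *NCU09569* (0.067) and 2.29 ± 0.70 for *NCU03011* (0.083). *NCU09569* and *NCU03011* lost this last call when a single library was left out, and *NCU03011* was no longer called between Δ*set-2* and the parent without the first parent library (adjusted p = 0.11). *NCU00055* on LG III had 15 and 29 counts in Δ*set-2* and 15 and 51 in the *ash1* mutant against 1 and 1 in the parent, with a log2 difference between the mutants of 0.73 ± 0.66 (adjusted p = 0.48). *NCU07976* on LG IV had 13 and 31 counts in Δ*set-2* and 3 and 10 in the *ash1* mutant, with a log2 difference of -1.57 ± 0.71 that did not pass the test (adjusted p = 0.19).

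Set directly against each other by edgeR, 187 of the 568 genes were higher in the *ash1* mutant than in Δ*set-2*, where 14.8% of all genes tested were, and 3 were lower, where 11.0% of all genes tested were. As shares of all members these were 32.9 and 0.528%, beside 12.6 and 9.33% of all 9730 genes and 18.0 and 1.43% of all genes with at most 3 WT counts. Of the set 216 genes were tested. By their Δ*set-2* counts alone 17 of them met the filter's level, including genes such as *NCU04034* that also met it in the *ash1* mutant. The others needed counts in the *ash1* mutant to enter. In Δ*set-2* 438 of the 568 genes had at most 3 counts, so a lower call was rarely within reach. The few lower calls thus say nothing about the direction of change. All 187 also belong to the 210 that were higher than in the parent, a comparison with which this one shares the *ash1* mutant libraries. With the second *ash1* mutant library alone, whose name carries the same date as both Δ*set-2* libraries, 195 genes were higher and 2 lower, beside 12.9 and 10.03% of all 9730 genes. In that fit the Δ*set-2* pair alone gives the spread and the lone library is assumed to vary like it. Beyond the genes above, the highest were *NCU00532* on LG I (179 and 111 counts against none, at least 105-fold higher), *NCU02964* on LG I (153 and 126 against none, at least 101-fold higher), *NCU03481* on LG II (134 and 140 against 2 and 0) and *NCU06793* on LG II (133 and 137 against 1 and 0). *NCU03481*, with a span of 4848 bp, also stood at 4 counts in each parent library.

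The 3 genes lower in the *ash1* mutant than in Δ*set-2* were *NCU17050* (log2 difference -2.61 ± 0.51, SE, adjusted p = 0.024), *NCU07323* (-2.23 ± 0.62, adjusted p = 0.064) and *NCU06689* (-1.58 ± 0.50, adjusted p = 0.090). *NCU07323* on LG IV (4368851 to 4369603) had 13 and 20 counts in Δ*set-2*, 4 and 2 in the *ash1* mutant and 1 in each parent library. It is the neighbour of *con-13* and stands 1 gene from *con-10*, an unmarked conidiation gene with 1001 and 1491 counts in Δ*set-2*, 63 and 68 in the *ash1* mutant and 12 and 22 in the parent, while *con-13* between them had 1 and 2 counts in Δ*set-2*. *NCU06689* on LG V had 19 and 22 counts in Δ*set-2* and 4 and 8 in the *ash1* mutant. *NCU07323* and *NCU06689* lost their calls under DESeq2 and without single libraries.

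**Figure D4:**
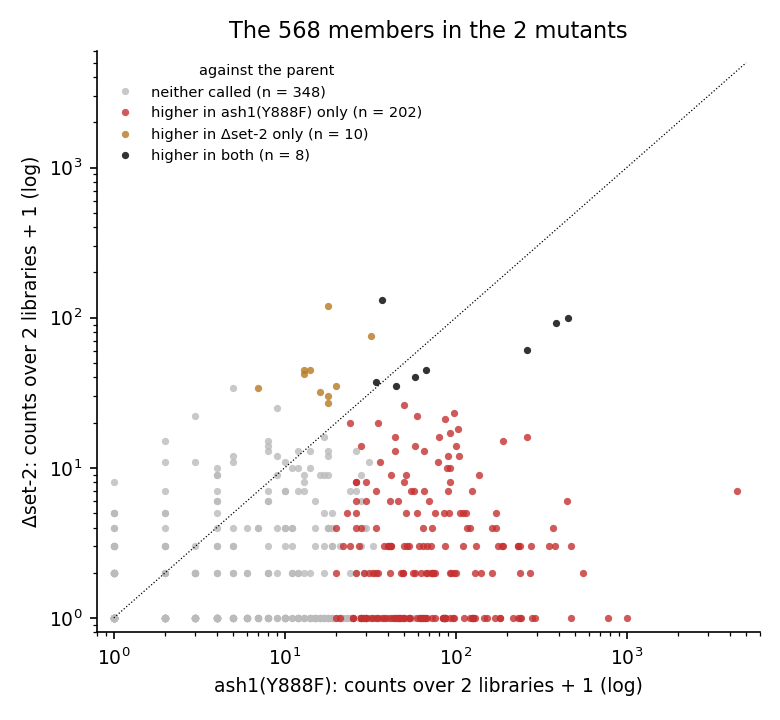
Counts summed over 2 libraries, plus 1, in the *ash1* mutant (horizontal axis, log scale) and Δ*set-2* (vertical axis, log scale) for the 568 silent ASH1-marked genes, colored by the edgeR calls against the shared parent. Of them 202 were called higher in the *ash1* mutant alone, 10 in Δ*set-2* alone and 8 in both. These numbers follow the filter, as 213 of the genes entered the test of the *ash1* mutant and 19 that of Δ*set-2*. Over all 9730 genes 13.3 and 21.7% were called higher, and over genes with at most 3 WT counts 20.5 and 3.55%. Most points lie below the dotted line of equal counts. Whether a gene called in 1 mutant differs between the mutants is answered only by their direct comparison.

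The genes occur on all 7 linkage groups, from 3.19% of the genes on LG III (40 of 1255) to 7.20% on LG II (74 of 1028). Genes with 20 or more counts in the *ash1* mutant were found on each, from 35.4% of the members on LG I (52 of 147) to 51.4% on LG II (38 of 74). Distances to linkage group ends are measured to the last annotated gene, because lengths of the linkage groups were not used here. Only 7 of the 568 genes (1.23%) lay within 100000 bp of an end, beside 14 of the 802 other genes with these marks (1.75%), 36 of the 439 silent genes that also carry H3K27me2/3 (8.20%) and 3.95% of all genes. The nearest H3K27me2/3-marked gene was a median of 571832 bp away (quartiles 78564 and 1346356), and 20 of the genes (3.52%) had such a gene as an immediate neighbour.

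Most of the genes stood next to another ASH1-marked gene. At least 1 of the 2 neighbours in gene order was ASH1-marked for 419 of 568 genes (73.8%) and both were for 135 (23.8%), against 65.1% and 18.7% of the 802 other genes with these marks and 32.6% and 7.85% of all genes. The most expressed of the neighbours stood at 7.70 CPM per kb in WT (median), against 11.3 and 19.99 CPM per kb for those groups. Silent genes in other classes had such neighbours too. Over all genes with at most 3 WT counts the median was 7.18 CPM per kb, and 64.2% had an ASH1-marked neighbour. For the silent genes that also carry H3K27me2/3 these values were 0.208 CPM per kb and 93.6%, and 58.3% had 2 such neighbours. With neighbours within 2000 bp only, the share of the 568 genes with an ASH1-marked neighbour was 63.4%.

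The 568 genes formed 416 runs of adjacent members along the linkage groups. Of these 315 held 1 gene, 72 held 2, 20 held 3 and 9 held 4 or more. The 101 runs of 2 or more genes contained 253 of the genes (44.5%). Adjacent members did not always reach the same level in the *ash1* mutant. All genes of the run had 20 or more counts over both libraries in 27 runs, none in 31 and some in 43. By calls against the parent, all genes of the run were higher in 19 runs, none in 38 and some in 44, but a gene without a call was in most cases one that did not enter the test.

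The longest run, 8 genes from *NCU02866* to *NCU02860* on LG I (8868382 to 8882350, all on the minus strand), stayed low. Its genes had 0 to 10 counts over both *ash1* mutant libraries and at most 3 over both libraries of any other strain, and none entered the test. The most counts were in *NCU16483* with 3 and 7, *NCU02865* with 7 and 2 and *NCU02864* with 8 and 1. *NCU02862* had 2 and 4, *NCU16482* 1 and 2, *NCU02866* 2 and 0, and *NCU02861* and *NCU02860* none. Other runs, chosen here after their values were seen, contrast with it. In the 6 genes from *NCU05615* to *NCU05611* on LG VI (1315375 to 1328743) every gene had 29 to 85 counts over both *ash1* mutant libraries and none in the parent, and 4 of the 6 were called higher. The other 2, *NCU17087* with 7 and 32 counts and *NCU05612* with 6 and 50, had too few counts in the first library to enter the test.

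Unequal levels within a run were also seen at close range. From *NCU00533* to *NCU00529* on LG I (8104310 to 8111450), 5 genes on the plus strand, *NCU00532* had 179 and 111 counts and *NCU00529* 111 and 127 in the *ash1* mutant, whereas the other 3 had 4 to 8 per library. All 5 had no count in Δ*set-2*. Next to *NCU06938* lies *NCU06937* on the same strand (833411 to 834699), with none in the parent and 128 and 57 counts in the *ash1* mutant (adjusted p = 0.011), beside the 2318 and 2120 of its neighbour.

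Neighbours were also compared by whether the gene was called higher. Of the 358 members without the call 355 did not enter the test, and 37 of the 358 had 20 or more counts in the *ash1* mutant, so the split follows the filter on counts in the mutant. Of the 210 genes higher in the *ash1* mutant than in the parent, 121 had at least 1 neighbour that was also higher (57.6%), and of the other 358 genes 144 did (40.2%). Counted by neighbour, 120 of 215 ASH1-marked neighbours of the first group were higher (55.8%) and 125 of 339 of the second (36.9%). For unmarked neighbours the numbers were 30 of 205 (14.6%) and 36 of 377 (9.55%), beside 13.3% of all genes on the same basis, untested genes included. Split by counts instead, 133 of 246 ASH1-marked neighbours (54.1%) were higher around the 244 genes with 20 or more counts in the *ash1* mutant, and 112 of 308 (36.4%) around the other 324. A pair of adjacent members is counted from both sides, and these shares were not tested. The shares of ASH1-marked neighbours fell from 51.9 and 50.5% at the adjacent positions to 19.5 and 19.05% at the 6th gene on either side of the first group.

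**Figure D5:**
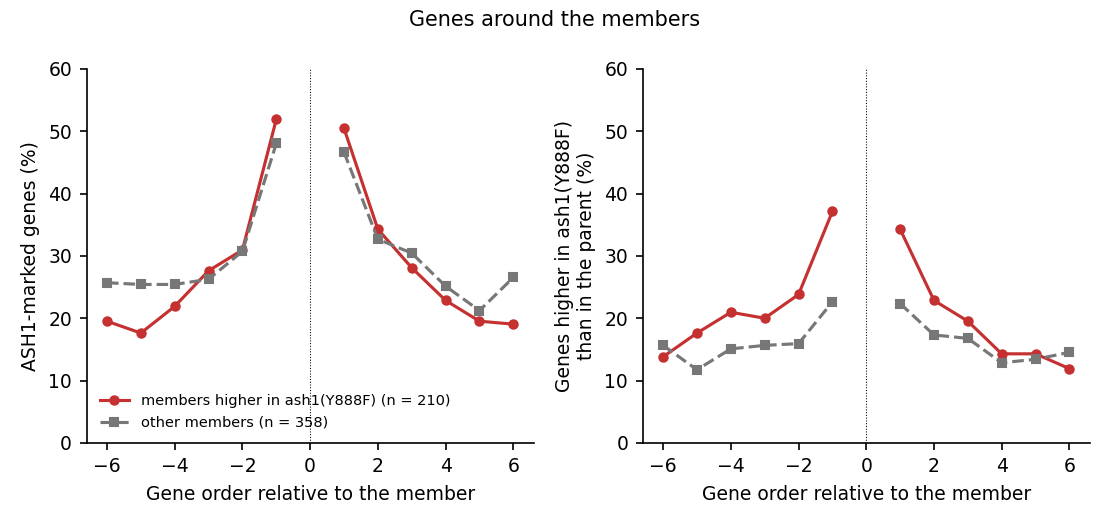
Share of genes that are ASH1-marked (left, percent) and share higher in the *ash1* mutant than in the parent (right, percent of all genes at that position) at each of 6 positions in gene order on either side of a silent ASH1-marked gene. Red circles are positions around the 210 genes higher in the *ash1* mutant and grey squares those around the other 358; at the adjacent positions the share higher was 37.1 and 34.3% around the first and 22.6 and 22.3% around the second.

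Divergent pairs, in which the neighbour on the upstream side is transcribed away from the gene and lies within 2000 bp, were found for 142 of the 568 genes (25.0%), beside 31.3% of the 802 other genes with these marks and 40.7% of all genes. The share was 26.7% over all genes with at most 3 WT counts and 20.3% for silent genes that also carry H3K27me2/3, so the set stood close to silent genes in general. The divergent partner was ASH1-marked for 84 and itself a member for 54. Around 53 genes higher in the *ash1* mutant the partner was also higher in 22 cases (41.5%), and around the other 89 in 27 (30.3%). On the same basis 13.3% of all genes, 37.0% of members and 48.9% of the 802 other genes with these marks were higher. A divergent pair of members is counted from both sides, and the split follows the filter on counts in the mutant. These shares were not tested.

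The authors' tables of H3K27 methylation, which give the log2 ratio of mutant over WT ChIP-seq coverage for 592 genes, include 6 genes of the set although the list used to choose it does not. For H3K27me2/3 in the *ash1* mutant the ratios, each the authors' mean of a value upstream and a value downstream of the gene start with no replicates, were -0.93 for *NCU03580*, -0.90 for *NCU16333*, -0.15 for *NCU04961*, 0.24 for *NCU17187*, 1.01 for *NCU07801* and 1.50 for *NCU09766*. The ratio of *NCU04961* averages 0.14 upstream and -0.44 downstream. The values for *NCU07801* and *NCU09766* stood at the upper end of the table, where 567 genes lay below *NCU07801* and 588 below *NCU09766*. *NCU07801* had 21 and 13 counts in the *ash1* mutant, none in the parent, and was called higher, while *NCU09766* had no count in any library. The other 4 had 1 to 7 counts over both *ash1* mutant libraries. In the table for Δ*npf*, which is labelled H3K27me3 and so a different immunoprecipitation, and which comes from a strain without a histone-binding protein that works with Polycomb Repressive Complex 2, the ratios of the 6 genes ran from -0.52 (*NCU03580*) to 0.77 (*NCU07801*).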

How the data were processed

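The authors deposited raw counts of poly-A+ RNA per gene, not normalized, from stranded single-end libraries filtered by k-mer and trimmed (Stacks), aligned by TopHat2 and, after SAMtools sorting, counted by strand in HTSeq (versions not given in the sources used here). Counting by strand keeps most overlaps apart, and 3 members overlap a neighbour on the same strand. The authors' ChIP-seq gene lists give spans on the corrected OR74A genome (NC12; starts converted to count from 1), and the H3K27 tables the authors deposited hold log2 ratios of mutant over WT ChIP-seq coverage per gene. Their DESeq2 tables of fold changes and p-values were not used. Of 8 unnamed count columns in 1 table, 1 is the first parent library, 3 repeat other libraries and 4 were not used, nor were 8 columns of means and standard deviations.

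Genes were tested with edgeR 4.0.16 (TMM, genes under about 10 counts filtered out, quasi-likelihood, Benjamini-Hochberg adjusted p under 0.1 over all genes tested) in R 4.3.3, 2 libraries against 2, for *ash1*(Y888F) against the parent, Δ*set-2* against the parent and *ash1*(Y888F) against Δ*set-2*. WT entered no test, because it chose the members. With 2 libraries per strain p-values measure only the spread between these libraries. Standard errors are |log2 fold change| divided by √F and are approximate. Against 0 counts folds are lower bounds from a floor of 3 counts per group, and against 1 to 3 counts they are ratios of CPM with exact 95% counting intervals. Fits were tested on simulated data. Alternatives were RLE size factors, no filter, DESeq2 1.42.0, all 4 strains in the fit, a replicate block, an adjusted p under 0.05, each library left out, and other limits for members, neighbours and ends.

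Named are the 12 called genes with the highest mean CPM in *ash1*(Y888F), the 8 in Δ*set-2*, the 4 next highest over Δ*set-2* and up to 4 lower, the 4 highest in the parent, genes with a RefSeq symbol (18 members; all 568 matched RefSeq and 557 had the same span), the longest run, the longest gene, the 4 longest without counts, and *ash1*, *set-2* and *mus-52*. Others are named after their values were seen. Members, lists and this rule were chosen with earlier results of these data known. Symbol lists were plant cell wall and sugar use, mating and sexual development, conidiation, RNA and meiotic silencing, heterokaryon incompatibility, polyketide synthases, cytochromes P450, quinic acid, and H3K36 and H3K27 methylation. Tables and figures used scipy 1.17.1, pandas 2.3.3, numpy 2.4.6 and matplotlib 3.10.9 under Python 3.11.15.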

Additional observations from a re-analysis of the deposited data

How the results depend on the processing

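The count of genes higher in the *ash1* mutant than in the parent stayed between 208 and 307 over the alternatives with all libraries (210 in the report, 307 without the low-count filter, 275 by DESeq2, 218 with all 4 strains in the fit) and between 179 and 235 with single libraries left out, 171 to 202 of them among the 210. None was lower in any of these, and the low parent counts of the set left little room for a lower call. In Δ*set-2* the 18 genes higher became 51 with no filter, 30 by DESeq2, 48 with all 4 strains in the fit, and 19 to 24 with a library left out, and the 0 lower became 2, 1 and 3 in the first 3 of these. The cause was not tested beyond the number of genes that enter each test. Genes higher in the *ash1* mutant than in Δ*set-2* numbered 170 to 268 in place of 187 (168 to 214 with a library left out), and the 3 lower became 1 at an adjusted p under 0.05 and 2 to 4 with a library left out. With the library number of the file names as a replicate block the counts higher were 211, 18 and 194, and the lower genes in the last comparison rose from 3 to 7. Those numbers pair nothing in the labels, and the deviations of same-numbered libraries correlated with -0.08, -0.03 and 0.37 in the 3 comparisons, over 2 pairs. Among members with 0 WT counts, 25.5% were higher in the *ash1* mutant and 0.593% in Δ*set-2*, against 37.0 and 3.17% of all members. With members chosen on the parent in place of WT (583 genes), a description because the parent enters that test, the shares were 38.4 and 4.63%. The share with an ASH1-marked neighbour was 63.4% within 2000 bp, and 4.75% lay within 200000 bp of a linkage group end. Of 76 calls of named genes 10 were lost under at least 1 edgeR or DESeq2 alternative and none turned. Depth limits the low end: the 355 members outside the main test had too few counts to enter it. Without the filter 507 members were tested, and the 307 that were higher held all 210 of the main test.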

Other observations

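*ash1* itself (*NCU01932*) had 179 and 181 counts in the libraries labelled Δ*set-2*, 711 and 784 in the parent and 668 and 675 in WT, so it was lower in Δ*set-2* than in the parent by edgeR (log2 fold change -1.98 ± 0.17, SE, adjusted p = 0.0015). In the *ash1* mutant it did not pass the test (0.12 ± 0.24, adjusted p = 0.78). A single library carried the Δ*set-2* value of some silent ASH1-marked genes. *NCU08491* on LG II had 33 counts in the first Δ*set-2* library and 0 in the second, beside 2 and 2 in the *ash1* mutant and none in WT or the parent, and it did not enter the test. It is named after its values were seen.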
